A study of Mus musculus with 2 samples.

Results

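The genes described here are 10 enzyme genes of the mouse kidney tubule that handle drugs, steroids and reactive carbonyl compounds: *Gsta2*, *Gsta3*, *Gsta4*, *Gstm1*, *Gstp1*, *Ugt2b37*, *Ugt3a1*, *Cbr1*, *Inmt* and *Akr1c21*. They were found by gene symbol in both count matrices, where they are 10 of 31053 genes. They had been picked from the genes that led tubule cells in these same libraries, so their excess in tubule cells is how they were chosen and not a result. The segment of the tubule, the Xist and Y cells described below, and the age of the mice were not named in that choice.

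The study set out to learn how kidney innate lymphoid cells change in lupus nephritis. It deposited 2 libraries of kidney cells, 1 from young and 1 from old MRL-*lpr* mice, a strain with the *Fas* *lpr* mutation that develops lupus-like kidney disease with age. The labels give age only as young or old, and both libraries carry the same genotype, so no library of a healthy strain enters. Kidneys of each age were pooled, leukocytes were enriched on a density gradient and innate lymphoid cells with a kit before droplet 3′ sequencing. Tubule cells that passed these steps are therefore a remainder, and their share of a library is not their share of a kidney. With 1 library per age there is no replicate, no p-value is given, and each 95% interval covers counting error only.

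The kidney clears many foreign and internal compounds by the same chemistry as the liver, most of it in the proximal tubule. Glutathione S-transferases (Gst genes) join glutathione to reactive molecules, UDP-glycosyltransferases (Ugt genes) add a sugar, carbonyl reductases and aldo-keto reductases (*Cbr1*, *Akr1c21*) reduce carbonyl groups of drugs and steroids, and *Inmt* methylates amines. The proximal tubule is divided along its length into the segments S1, S2 and S3, and in rodents many of its transporter and enzyme genes are known to differ between segments and between males and females, largely through androgens.

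A barcode was kept where 200 or more genes were detected and mitochondrial UMIs were no more than 20%. This left 11429 cells of the young library with a median of 7881 UMIs and 10232 cells of the old library with a median of 6933 UMIs. A UMI is a counted RNA molecule, and levels below are CPM, that is UMIs of a gene per 1000000 UMIs summed over a set of cells. Proximal tubule cells were those with at least 4 of 8 tubule markers and at most 1 of 6 leukocyte markers, which gave 6497 young and 3513 old cells with median UMI counts of 14457 and 15264. The libraries shared 26 kept barcodes. The methods name female mice, yet 50.8% of kept young cells and 40.6% of kept old cells had a UMI of a Y-linked gene (*Ddx3y*, *Eif2s3y*, *Kdm5d* or *Uty*) and none of Xist, the RNA of the inactive X chromosome. Cells with Xist and no Y-linked UMI made up 14.6% and 29.1%. Both kinds of cell were thus present in each library, in unequal parts, and the tubule cells are accordingly also given as Xist cells (783 young, 543 old) and Y cells (3546 young, 1739 old). Of these Xist or Y cells, Y cells made up 81.9% in the young and 76.2% in the old library, and the many cells with neither UMI were shallower, with medians of 6962 and 8069 UMIs. A further 156 young and 73 old tubule cells had both kinds of UMI. These are groups of cells read from the data, not labelled samples.

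Promoter sequence is shown for the members that hold a known regulatory word close to their start. The RefSeq promoters used here (GRCm38.p6) run from 250 bases before to 50 bases after the start, and 9 of the 10 members had an entry. *Gsta4* had none. The core of the antioxidant response element, the site read by the NRF2 factor, was searched as TGANNNNGC on both strands. It was found in 3 members, *Gsta3*, *Gstp1* and *Inmt*, and in 41.3% of all 32851 promoters, so its presence is common. The windows below are written 5′ to 3′ on the gene's strand with the match in capitals. They lie at chr1:21240444-21240492, plus strand (*Gsta3*), chr19:4037958-4038006, minus strand (*Gstp1*), chr6:55175183-55175231, minus strand (*Inmt*, outer copy), chr6:55175137-55175185, minus strand (*Inmt*, inner copy), chr1:21240547-21240584, plus strand (*Gsta3*, second match) and chr19:4037913-4037941, minus strand (*Gstp1*, second match). Each of the 3 genes thus held 2 matches, and both *Inmt* matches and the second matches of *Gsta3* and *Gstp1* read on the opposite strand. The second matches stand 18 and 9 bases before the start, where their windows end.
Gsta3: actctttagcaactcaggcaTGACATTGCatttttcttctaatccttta
Gstp1: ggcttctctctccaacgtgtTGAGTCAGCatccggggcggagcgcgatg
Inmt, outer copy: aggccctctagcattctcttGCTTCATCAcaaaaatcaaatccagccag
Inmt, inner copy: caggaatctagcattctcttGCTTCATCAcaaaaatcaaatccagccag
Gsta3, second match: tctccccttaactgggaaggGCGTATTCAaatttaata
Gstp1, second match: cggcccggtggcctacgcgtGCGTCCTCA
The *Inmt* copies stand in near-identical stretches, 221 and 175 bases before the start. The first part of the site of HNF1, a factor that maintains proximal tubule genes, was searched as GTTAAT on both strands and found in 3 members, against 7.10% of all promoters. Those windows lie at chr1:21240416-21240461, plus strand (*Gsta3*), chr13:4574003-4574048, plus strand (*Akr1c21*) and chr15:9279686-9279731, plus strand (*Ugt3a1*), and each match reads on the opposite strand, as ATTAAC.
Gsta3: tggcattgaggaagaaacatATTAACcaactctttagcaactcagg
Akr1c21: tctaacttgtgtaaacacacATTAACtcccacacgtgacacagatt
Ugt3a1: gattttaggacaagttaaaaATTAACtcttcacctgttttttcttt
The full androgen response element, AGAACA and its inverted repeat with 3 bases of any kind between them, was searched on both strands and was in 3 promoters of all genes and in no member. A match is a run of letters in a window and is no measure of binding.

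Among all proximal tubule cells the members differed widely in level. *Akr1c21*, a hydroxysteroid dehydrogenase (ENSMUSG00000021207, chromosome 13, 4574075 to 4586541, plus strand), was the most abundant at 2424 (95% interval 2415 to 2433) CPM young and 2131 (2120.2 to 2143) CPM old. It had a UMI in 90.1% and 93.7% of cells. *Inmt*, the indolethylamine N-methyltransferase (ENSMUSG00000003477, chromosome 6, 55170626 to 55175043, minus strand), came next at 557 (553 to 561) CPM young and 760.3 (754 to 767) CPM old. *Gstm1*, a mu-class transferase (ENSMUSG00000058135, chromosome 3, 108012255 to 108017973, minus strand), was the third at 363 (359.9 to 367) and 266 (262 to 270.2) CPM. These 3 genes held the same order in both libraries and their intervals did not touch.

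The sugar transferases were at intermediate levels. *Ugt3a1*, which belongs to a small family that uses sugar donors other than glucuronic acid (ENSMUSG00000072664, chromosome 15, 9276888 to 9315032, plus strand), stood at 179.7 CPM young and 143 CPM old. *Ugt2b37*, a glucuronosyltransferase (ENSMUSG00000057425, chromosome 5, 87240493 to 87254804, minus strand), stood at 113 and 68.7 CPM. Both were lower in the old library. The alpha-class transferases *Gsta2* (ENSMUSG00000057933, chromosome 9, 78331018 to 78355788, minus strand) and *Gsta3* (ENSMUSG00000025934, chromosome 1, 21240589 to 21265661, plus strand) were at 82.5 and 118 CPM young and at 113 and 141 CPM old. *Gsta4*, the alpha-class enzyme known for its action on the lipid peroxidation product 4-hydroxynonenal (ENSMUSG00000032348, chromosome 9, 78182774 to 78209349, plus strand), was lower at 33.3 CPM young and 27.8 CPM old. *Cbr1*, the cytosolic carbonyl reductase (ENSMUSG00000051483, chromosome 16, 93605853 to 93610505, plus strand), stood at 89.0 and 69.7 CPM, and *Gstp1*, the pi-class transferase (ENSMUSG00000060803, chromosome 19, 4035407 to 4037985, minus strand), at 33.8 and 36.4 CPM. Most neighbours in this order differed beyond their counting error, except *Gsta4* and *Gstp1* in the young library and, in the old, *Ugt3a1* with *Gsta3* and *Cbr1* with *Ugt2b37*, whose intervals overlapped. These positions are gene spans of GENCODE M21 on GRCm38, and all 10 are protein-coding.

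Members at a higher level mostly had a UMI in more cells, but *Gsta2* and *Ugt2b37* fell below this trend. *Gsta2* was at 82.5 CPM in the young library but had a UMI in only 25.4% of tubule cells. *Ugt2b37*, at 113 CPM, had one in 27.6%, whereas *Gsta3*, at 118 CPM, had one in 61.9%. *Gsta4* had a UMI in 18.8% of young and 17.8% of old tubule cells. A 3′ read cannot always name its gene within a family. Of the 410 read positions of 91 bases in the last 500 bases of the *Gstp1* transcript, 68.0% also matched *Gstp2*, and 9.76% of those of *Gsta2* matched *Gm10639*. The counts of *Gstp1* are for this reason uncertain, while the other 8 members had no such position.

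To place the members along the tubule, segments were called from transporter genes that are not members: 4 markers for S1, 3 for S2 and 4 for S3, with a segment called where its weighted share of the marker UMIs reached 0.6. This gave 1550 S1, 524 S2 and 922 S3 cells in the young library and 704, 418 and 198 in the old. Cells with mixed markers were many, at 50.6% and 61.1% of tubule cells, and a segment is hence a range along the tubule more than a closed class. Of these markers the glucose carrier *Slc5a2* was at 869.6 CPM in young S1 and 23.5 CPM in young S3 cells, and *Slc7a13* was at 7.16 and 911 CPM, values that describe the call and do not check it. The segments were not alike in sex: Y cells made up 74.6% of Xist or Y cells in young S1, 51.4% in S2 and 96.8% in S3, and 52.7%, 81.2% and 93.4% in the old library. Values within Y cells are thus given beside the pooled ones, and the Xist values in S3 rest on only 21 young and 9 old cells.

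Between S1 and S3 most members fell into 2 opposite patterns, while some were highest in S2, as given below. In the young library 6 of 10 were at least 2-fold higher in S3 than in S1, beside 5.35% of the 10667 genes with 100 or more UMIs, and 3 were at least 2-fold lower, beside 14.3%, with 19.7% of genes past that fold in either direction. The median log2 ratio was 1.34 over the members and -0.26 over all genes. In the old library 4 were higher, beside 3.77% of genes, and 3 lower, beside 9.35% (13.1% in either direction), and the medians were 0.60 and -0.16. *Ugt2b37* had the steepest gradient. It was at 11.7 CPM in S1 and 312 CPM in S3 of the young library, a log2 ratio of 4.73 (4.56 to 4.91), and at 7.05 and 321 CPM in the old, a ratio of 5.51 (5.16 to 5.88). Within Y cells it went from 14.6 CPM in S1 through 45.8 in S2 to 331 in S3, and in the old library from 11.8 through 37.3 to 332. Among the segments called, S3 was thus where this gene was found at a high level in both libraries.

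Among Y cells *Inmt* and *Akr1c21* were highest in S2. In the young library *Inmt* was at 72.2 (68.1 to 76.5) CPM in S1, 941 (896 to 987) in S2 and 806 (792 to 819.6) in S3. Old Y cells had it at 125, 1246 and 1154 CPM. *Akr1c21* was at 1392, 3700.1 and 3468 CPM in young and 1400.2, 2966 and 2712 CPM in old Y cells. Over all tubule cells, with their other mix of Xist and Y cells, S3 stood above S2 instead. *Inmt* was then at 442 CPM in S2 and 743 CPM in S3 of the young library and at 870.2 and 1123 CPM in the old. *Akr1c21* was at 2168 and 3207 CPM young and at 2583 and 2616 CPM old. The order of S2 and S3 thus turned on which cells were read, while S1 was lowest either way. The pooled S3 over S1 log2 ratio of *Inmt* was 3.56 young and 3.74 old, and that of *Akr1c21* 1.51 and 1.33. Within old Y cells *Akr1c21* stood just short of the 2-fold line, at 0.95, and among old Xist cells, with 9 cells in S3, it was lower in S3, at -2.33. *Ugt3a1* climbed evenly through 55.3, 160.0 and 287 CPM in young Y cells and 61.5, 129 and 227 CPM in old Y cells.

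The 3 alpha-class transferases ran the other way between S1 and S3. *Gsta2* was at 190.1 CPM in young S1 and 43.9 CPM in young S3 cells, and at 351 and 19.5 CPM in the old library, log2 ratios of -2.11 (-2.22 to -2.01) and -4.17 (-4.54 to -3.82). *Gsta4* went from 71.3 CPM in S1 to 14.9 CPM in S3 of the young library (log2 ratio -2.26), and from 59.6 to 4.13 CPM in the old (-3.85), where S3 held only 14 UMIs of it. With a tubule gate of 3 markers the old *Gsta4* ratio was 0.080, so this value rests on which few cells were let in. In S2 *Gsta4* was at 80.9 CPM young and 54.9 CPM old, near its S1 level over all tubule cells. Read by sex, S1 and S2 were alike only in young Y cells, at 19.3 and 17.5 CPM. Old Y cells had 20.1 CPM in S1 and 0 UMIs over 155 S2 cells. Xist cells went from 193 to 102 CPM young and from 81.1 to 148 CPM old. The S3 over S1 difference of *Gsta3* was smaller, with log2 ratios of -1.28 and -1.33. Over all tubule cells *Gsta3* was highest in S2, at 256 CPM young and 220 CPM old, against 154 and 161 CPM in S1. Within Y cells S1 and S2 were nearly level, at 122 and 121 CPM young and 112 and 124 CPM old. Xist cells went from 197 to 282 CPM young and from 155 to 254 CPM old. In Y cells alone the ratio of *Gsta2* was -2.53 young and -2.95 old, and that of *Gsta3* -1.04 and -0.76. In young Y cells alone 6 members, *Gstp1* now among them at 1.01, were at least 2-fold higher in S3 and 3 lower, beside 5.35% and 12.4% of genes (17.8% in either direction). In old Y cells 3 were higher and 1 lower, beside 3.97% and 6.41% (10.4%), and *Gsta4* had too few UMIs to count. Over all tubule cells *Gstp1* was higher in S3 by under 2-fold, with ratios of 0.96 and 0.85.

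**Figure D1:**
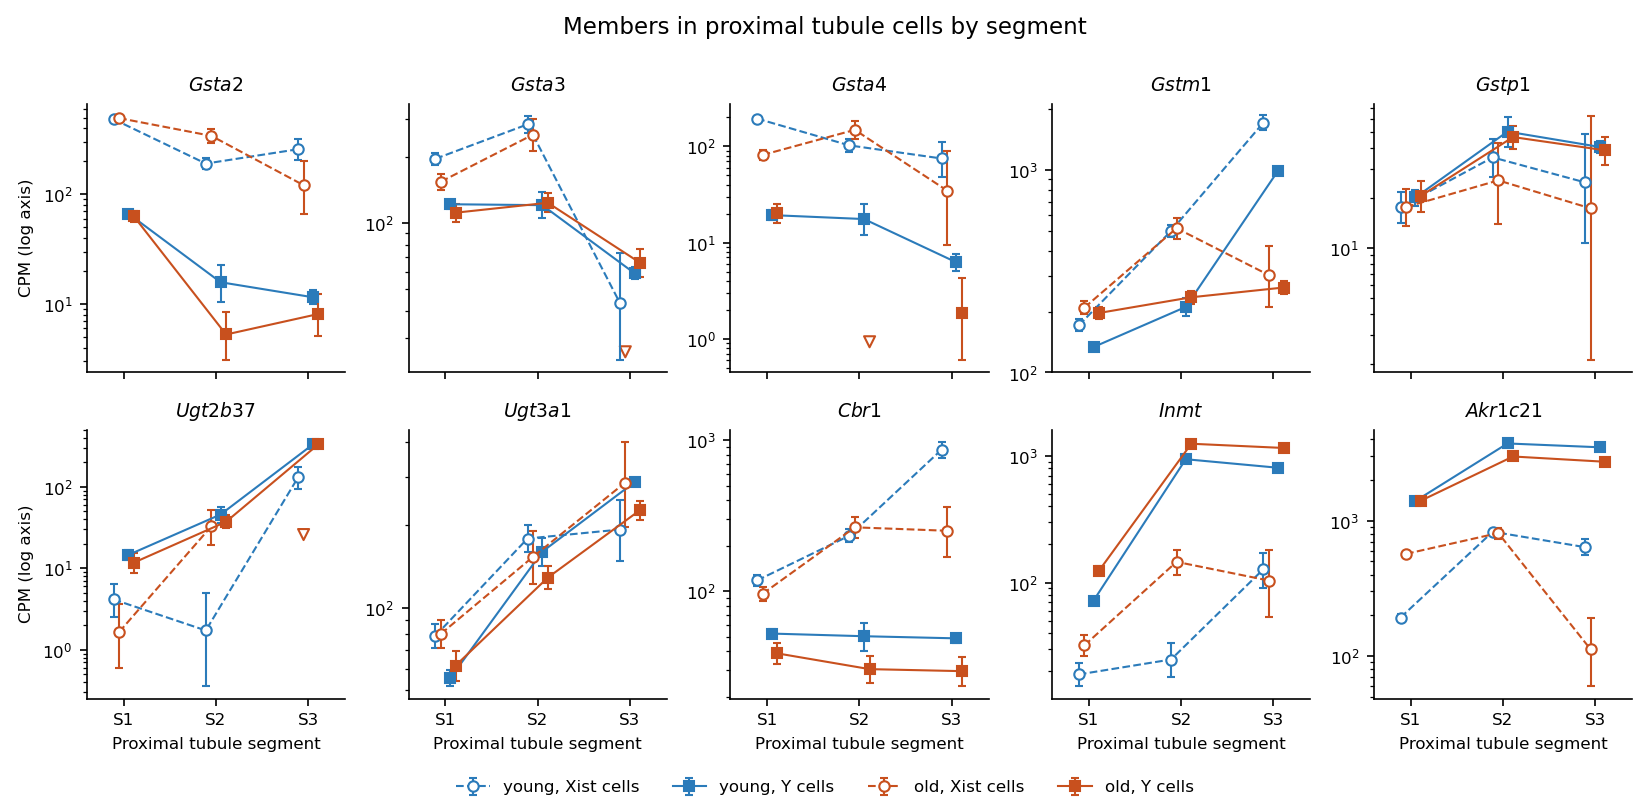
CPM of each member (log axis) in S1, S2 and S3 cells, with open circles for Xist cells and filled squares for Y cells of the young (blue) and old (orange) libraries, 95% Poisson intervals as bars, and open triangles at the upper limit that 0 UMIs allow (3 UMIs). *Ugt2b37* climbs to S3 in Y cells, *Inmt* and *Akr1c21* are high from S2 on in Y cells, and *Gsta2*, *Gsta4* and *Cbr1* lie higher in Xist than in Y cells of S1.

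The contrast of Y with Xist cells was larger for several members than the contrast of segments. In the young library 3 members were at least 1.5-fold higher in Y cells, beside 5.53% of genes, and 4 lower, beside 24.9% (30.4% in either direction). The median over all genes was -0.24 young and -0.32 old. In the old library 4 were higher, beside 8.56%, and 5 lower, beside 35.9% (44.4%). *Inmt* was at 42.7 CPM in young Xist cells and 661 CPM in young Y cells (log2 ratio 3.95, 3.83 to 4.08), and at 68.1 and 956 CPM in the old library (3.81, 3.70 to 3.93). *Ugt2b37* was at 8.26 and 139.6 CPM young and 8.51 and 84.7 CPM old, with ratios of 4.08 and 3.31. *Akr1c21* was at 452 and 2792 CPM young and 729 and 2423 CPM old, with ratios of 2.63 and 1.73. These 3 genes made up the side that was higher in Y cells in both libraries.

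On the other side stood *Gsta4*, *Gsta2*, *Cbr1* and *Gsta3*, all higher in Xist cells. *Gsta2* was at 314 CPM in Xist and 22.7 CPM in Y cells of the young library, and at 367 and 11.5 CPM in the old, log2 ratios of -3.79 (-3.87 to -3.71) and -5.00 (-5.14 to -4.86). *Gsta4* was at 134 and 7.37 CPM young and 90.9 and 3.91 CPM old, with ratios of -4.18 and -4.54. Most Y cells had no UMI of either gene, and 16.9% of young Y cells had *Gsta2* against 61.2% of young Xist cells. *Cbr1* differed by -2.26 and -2.22, and *Gsta3* by -1.50 and -0.92. *Ugt3a1* lay within 1.5-fold in both libraries, and so did *Gstm1* and *Gstp1* in the young library. *Gstm1* was at 347 CPM in Xist and 333 CPM in Y cells there. In the old library *Gstm1*, at -0.59, and *Gstp1*, at 0.85, passed 1.5-fold in opposite directions.

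Since segment and sex were unequally mixed, the contrast was also taken within S1, the segment with the most Xist cells (278 young, 219 old). There *Inmt*, *Akr1c21* and *Ugt2b37* remained higher in young Y cells, with log2 ratios of 1.93, 2.85 and 1.81, and *Gsta4*, *Gsta2*, *Cbr1* and *Gsta3* lower, at -3.33, -2.86, -1.17 and -0.69, beside 3.24% of genes higher and 7.44% lower by 1.5-fold (10.7% in either direction). In the old S1 cells *Inmt* (1.96) and *Akr1c21* (1.30) were higher and *Gsta2* (-2.97), *Gsta4* (-2.01) and *Cbr1* (-1.31) lower, beside 3.13% and 11.1% of genes (14.2%), while *Gsta3* lay within 1.5-fold (-0.47) and *Ugt2b37* had too few UMIs to count. These ratios were nearer to 0 in S1 than over all tubule cells, except that of *Akr1c21* in the young library. *Kap*, the kidney androgen-regulated protein, was at 1261 CPM in young Xist S1 cells and 3433 CPM in young Y S1 cells, and at 2170 and 70332 CPM in S2. In young S3 the 2 groups stood closer, at 77922 CPM in the 21 Xist cells and 96270 CPM in Y cells. In old S3 it was at 1723 CPM in the 9 Xist cells and 66394 CPM in Y cells. The share of the member differences that goes with androgen was not tested.

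Cells were unequal within these groups. The median Xist cell had 1 UMI of *Akr1c21* in the young and 6 UMIs in the old library, against 38 and 37 UMIs for the median Y cell. The 10% of young Xist cells with the most *Akr1c21* held 64.8% of its UMIs, against 36.3% in young Y cells. Free RNA in the droplets may add to such values, and its part was not tested. T cells, which should lack the gene, had 119 CPM of *Akr1c21* young and 37.2 CPM old, at median depths of 4978 and 4871 UMIs. Neutrophils had 197 CPM young and 34.3 CPM old, at median depths of 2200 and 3323 UMIs. The Xist S1 value of 568 CPM in the old library lay above both classes. That of 193 CPM in the young library lay above T cells but was level with neutrophils.

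**Figure D2:**
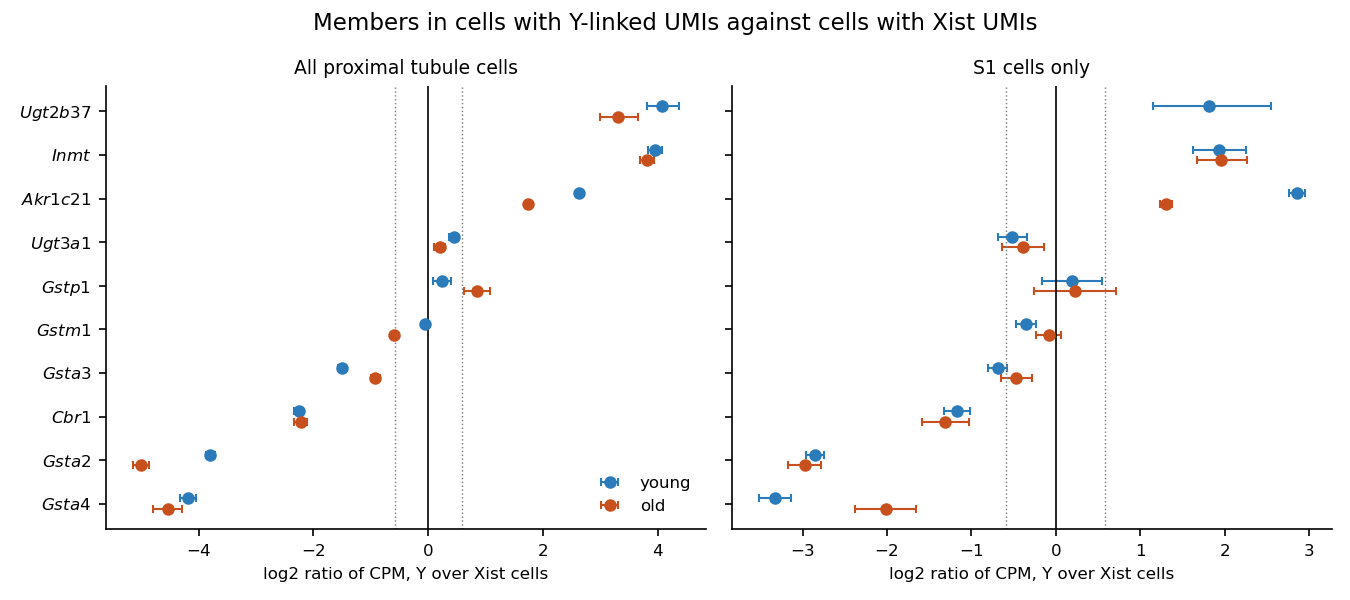
Log2 ratio of CPM in Y cells over Xist cells for each member, over all proximal tubule cells (left) and S1 cells alone (right), for the young (blue) and old (orange) libraries, with 95% binomial intervals and dotted lines at 1.5-fold. *Ugt2b37*, *Inmt* and *Akr1c21* lie to the right and *Gsta4*, *Gsta2* and *Cbr1* to the left in both libraries, and in S1 the old *Ugt2b37* point is left out for too few UMIs.

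*Gstm1* and *Cbr1* passed 2-fold higher in S3 in the young library only, and they were uneven inside S3. Over all tubule cells *Cbr1* was highest in S2. It was at 73.7, 194 and 165 CPM in S1, S2 and S3 young and at 82.7, 147 and 51.1 CPM old. *Gstm1* in S2 was at 445 CPM young and 401 CPM old. *Gstm1* was at 153 CPM in young S1 and 1086 CPM in young S3 cells (log2 ratio 2.83, 2.78 to 2.88), but at 229 and 292 CPM in the old library (0.35, 0.24 to 0.46). The young S3 excess lay largely in a minority of cells: 211 of 922 young S3 cells (22.9%) had *Gstm1* at 1000 CPM or more, against 11 of 198 old S3 cells (5.56%). In S1 such cells were 0.839% young and 1.99% old, and in S2 12.6% and 8.13%. The median young S3 cell, at 263 CPM, was far nearer to the median old S3 cell, at 135 CPM, than the means were. It still stood more than 1.5-fold above the old median.

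The genes that most separated the *Gstm1*-rich young S3 cells from the other S3 cells were *Akr1c18*, a hydroxysteroid dehydrogenase that inactivates progesterone (102 against 0.296 CPM), *Hsd17b14*, *Serpina1f* and *Cyp7b1*, an oxysterol hydroxylase. A mark of 5 such genes (*Akr1c18*, *Cyp7b1*, *Hsd17b14*, *Slc7a12* and *Serpina1f*, at least 2 with a UMI) was set after these values were seen. It was carried by 169 of 922 young S3 cells (18.3%, 15.9 to 20.98) and 6 of 198 old S3 cells (3.03%, 1.12 to 6.48). Since its genes were taken from young cells alone, a higher young share was favoured by how it was made, and these shares are a description. Because the mark was drawn from *Gstm1*-rich cells, its *Gstm1* level is a description: 2774 CPM in young carriers and 369 CPM in the other young S3 cells. The other members were not alike in these cells either. *Cbr1* was at 491 (474 to 509) CPM in carriers and 27.1 (24.4 to 29.9) CPM in the rest, *Gsta2* at 135 (126 to 145) and 5.22 (4.10 to 6.55) CPM, and *Gsta4* at 43.3 and 2.75 CPM. *Inmt* went the other way, at 176 (165 to 186) CPM in carriers and 984 (967 to 1000.1) CPM in the rest, as did *Ugt2b37*, at 54.6 and 421 CPM, and *Akr1c21*, at 2145 and 3658 CPM. *Ugt3a1* was at 294 and 274 CPM.

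*Gsta2*, *Gsta4* and *Cbr1* high with *Inmt*, *Ugt2b37* and *Akr1c21* low is the side on which Xist cells stood, so the carriers were also read by sex. The young carriers were 95 of the 626 Y cells and 7 of the 21 Xist cells of S3, and 67 had neither kind of UMI or both. Most of the carriers' *Gsta2* and *Cbr1* lay outside Y cells: of 813 *Gsta2* UMIs 122 were in Y, 83 in Xist and 608 in the remaining carriers, and of 2958 *Cbr1* UMIs 472, 273 and 2213. The Y carriers alone still stood on that side of the other 531 Y cells of S3. *Gsta2* was at 30.3 (25.2 to 36.2) CPM in them and 5.43 (4.21 to 6.90) CPM in the others, *Cbr1* at 117 and 26.3 CPM, and *Inmt* at 237 and 991 CPM, whereas in the 67 remaining carriers *Gsta2* was at 343 CPM, *Cbr1* at 1248 CPM and *Inmt* at 54.7 CPM. Carriers were also deeper, with medians of 43545 UMIs in Y carriers and 18322 UMIs in other Y cells of S3, and the part of depth in the mark was not tested. In the old library the 6 carriers held 49 of the 66 *Gsta2* UMIs and 78 of the 173 *Cbr1* UMIs of S3, and no UMI of *Inmt*, *Ugt2b37* or *Akr1c21*. With carriers left out, *Cbr1* was lower in S3 than S1 in the young library too, with a log2 ratio of -1.44, where it had been 1.17 with them. Within young Y cells, carriers included, *Cbr1* was level along the tubule at 52.4, 50.3 and 48.7 CPM, and within old Y cells it was at 38.7, 30.5 and 29.5 CPM. Among Xist cells it went from 118 to 864 CPM between young S1 and the 21 young S3 cells. Of the 278 *Cbr1* UMIs of those 21 cells, 273 lay in the 7 carriers. The other 14 cells were at 49.4 (16.0 to 115) CPM with 5 UMIs, below the S1 value.

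**Figure D3:**
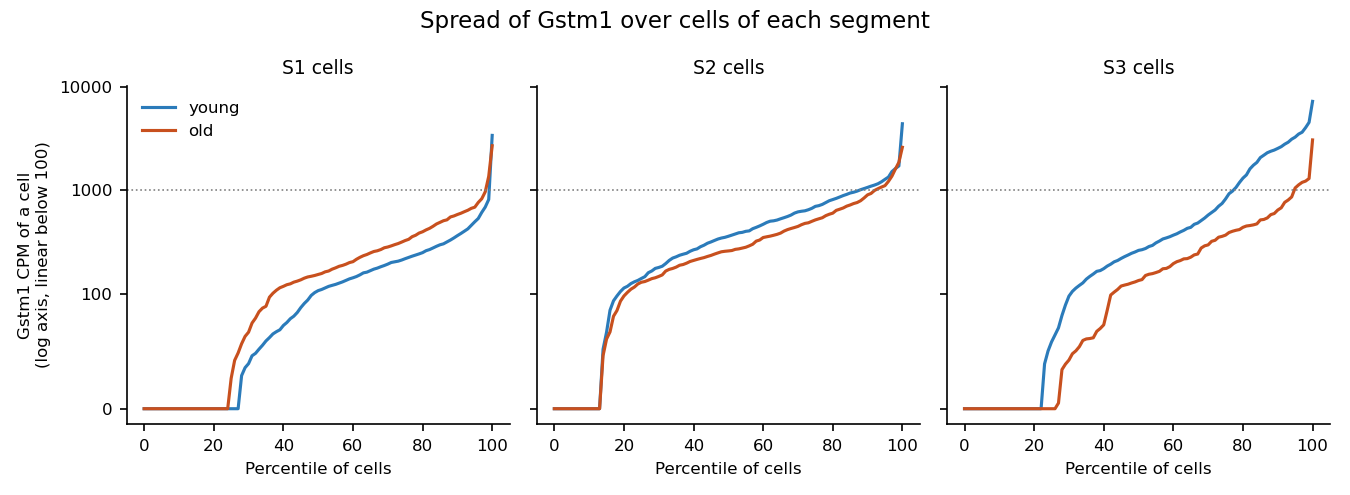
CPM of *Gstm1* in single cells (vertical axis, log above 100 and linear below) at each percentile of cells (horizontal axis) of S1, S2 and S3 in the young (blue) and old (orange) libraries, with a dotted line at 1000 CPM. The median cell stands at 107 CPM young and 154 CPM old in S1 and at 360.3 and 259.9 CPM in S2, while in S3 the young curve passes 1000 CPM for 22.9% of cells and the old curve for 5.56%.

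Between the libraries most members were close in the pooled tubule cells. At 1.5-fold, 1 of 10 members differed between old and young, beside 12.4% of 12330 genes. This was *Ugt2b37*, at 113 CPM young and 68.7 CPM old, a log2 ratio of -0.72 (-0.77 to -0.67). *Gsta2* (0.45) and *Inmt* (0.45) were higher in the old library by less, *Gstm1* (-0.45), *Cbr1* (-0.35), *Ugt3a1* (-0.33), *Gsta4* (-0.26) and *Akr1c21* (-0.19) lower, and *Gsta3* (0.26) and *Gstp1* (0.11) slightly higher. With each cell weighted equally the ratio of *Gsta2* was 0.73 and that of *Ugt2b37* -0.53, and with cells thinned to 1000 UMIs 0.62 and -0.52, so that *Gsta2* and not *Ugt2b37* was then past 1.5-fold. With the carriers left out of all tubule cells, *Gstm1* turned to 0.23 and *Cbr1* to 0.085. For *Gstm1* a move in this direction was built in, since the mark was drawn from *Gstm1*-rich young S3 cells. Age and library cannot be told apart here, and the make-up of the pools by sex and segment differed as given above.

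Taken within a sex, several of these ratios moved. *Gsta2* was higher in the old library over all tubule cells and by 0.22 (0.16 to 0.29) in Xist cells, but in Y cells it was at 22.7 CPM young and 11.5 CPM old, a ratio of -0.98 (-1.13 to -0.83). The pooled ratio of 0.45 lay outside both. Within S1 the pooled ratio of *Gsta2* was 0.88 (0.82 to 0.95), while it was 0.03 (-0.06 to 0.12) in Xist and -0.08 (-0.29 to 0.11) in Y cells of S1, where Y cells went from 74.6% to 52.7% of Xist or Y cells. The level of *Gsta2* in S1 thus differed little by library once the sexes were read apart, and in Y cells over all segments it was lower in the old library. *Akr1c21* was higher in old Xist cells, at 452 CPM young and 729 CPM old (0.69, 0.64 to 0.74), and slightly lower in old Y cells (-0.20, -0.22 to -0.19). In Xist S1 cells it went from 193 to 568 CPM, a ratio of 1.56 (1.45 to 1.67). In Xist cells 2 members passed 1.5-fold, *Akr1c21* and *Inmt* (0.67), both higher in the old library, beside 7.31% of genes higher and 10.8% past that fold in either direction. In Y cells 4 did, all lower in the old library, beside 7.56% of genes lower and 12.8% in either direction: *Gsta2*, *Gsta4* (-0.91), *Ugt2b37* (-0.72) and *Gstm1* (-0.63).

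Within S3 the libraries stood further apart, with 5 members past 1.5-fold beside 18% of genes. *Gstm1* was at 1086 CPM young and 292 CPM old (-1.89, -1.99 to -1.80), and *Cbr1* at 165 and 51.1 CPM (-1.70, -1.93 to -1.48). *Gsta4* (-1.85) and *Gsta2* (-1.17) were also lower in the old library, and *Inmt* (0.60) higher. Without the carriers, *Gstm1* differed by -0.55 (-0.66 to -0.44), *Cbr1* by 0.09 (-0.24 to 0.42), *Gsta2* by -0.01 (-0.87 to 0.76) and *Inmt* by 0.24 (0.18 to 0.29), all under 1.5-fold. *Gsta4* then had 6 old and 39 young UMIs and a ratio of -0.59 (-2.12 to 0.66). The mark was drawn from *Gstm1*-rich young S3 cells, so the smaller *Gstm1* difference without carriers was built in. For *Cbr1*, *Gsta2* and *Inmt* most of the pooled S3 difference lay in the carriers, which is a description. In Y cells of S3, carriers included, *Gsta2* (-0.51) and *Inmt* (0.52) lay under 1.5-fold as well. *Gstm1*, *Cbr1* and *Gsta4* were still lower there in the old library by more than 1.5-fold. Over all S3 cells *Ugt2b37* was nearly level, at 312 CPM young and 321 CPM old (0.04, -0.05 to 0.14), and at -0.35 without carriers, and S3 cells were 14.2% of young and 5.64% of old tubule cells. *Gstm1* in S1 was higher in the old library, at 0.58 (0.51 to 0.66), just under the 1.5-fold line and opposite in sign to S3.

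Few tubule cells carried injury transcripts. Cells with at least 2 of *Havcr1*, *Krt20*, *Lcn2*, *Sox9* and *Vcam1* numbered 11 in the young and 51 in the old library, and were compared with tubule cells that had none. In the old library 7 members passed 1.5-fold, beside 34.7% of genes. *Gsta2* was at 13.1 CPM in marked and 119.5 CPM in unmarked cells (-3.19, -3.97 to -2.51), and *Gsta4*, *Cbr1*, *Gsta3*, *Akr1c21* and *Inmt* were lower too, at -2.43, -1.61, -1.41, -1.25 and -0.87. *Ugt2b37* was higher (0.79). Since 38 of the 51 were Y cells, the contrast was repeated within Y cells. *Akr1c21* (-1.30), *Inmt* (-1.10) and *Gsta3* (-0.77) remained lower, while *Gsta4* turned to 0.64. Among the 11 young marked cells 6 members passed 1.5-fold, beside 41.4% of genes, with *Gstm1* highest at 2.46.

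Outside the tubule, free tubule RNA had to be set aside first. In a given cell class, RNA that leaks from tubule cells should bring every tubule gene along in about the same ratio, so each member's CPM in a class was expressed as a percent of its CPM in proximal tubule cells and set beside 4 abundant tubule genes (*Gpx3*, *Miox*, *Fxyd2* and *Kap*). The median of these 4 lay between 3.31% and 9.63% over 8 young classes of at least 50 cells, and between 1.07% and 3.27% over 6 old classes. *Akr1c21* lay in the range of these genes, its counting interval taken into account, in all 8 young and 5 of the 6 old classes, and below it in old neutrophils (1.61%, against a median of 3.27%). It stood between 3.03% and 8.11% for the young library and between 0.883% and 1.86% for the old. A UMI of it was nevertheless seen in 47.6% of young and 17.9% of old T cells, against 90.1% and 93.7% of tubule cells, and with every cell thinned to 1000 UMIs the shares were 13.4% and 4.76% against 68.7% and 71.4%. *Gsta2*, *Gsta3*, *Ugt2b37*, *Ugt3a1* and *Inmt* likewise exceeded the reference range in none of these classes, their counting intervals taken into account.

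*Gstp1*, *Cbr1* and *Gstm1* did exceed it. *Gstp1* was above the reference range in 6 of 8 young and 5 of 6 old classes and reached 68.6% of its tubule level in young group 2 innate lymphoid cells (ILC2s) and 57.1% in old natural killer (NK) cells or ILC1s, with the caution on *Gstp2* given above. *Cbr1* was above in the same numbers of classes, and stood at 44.8 CPM in young endothelial cells (50.4% of its tubule level) and 32.2 CPM in old ILC2s (46.2%). *Gstm1* was narrower. It was above in young endothelial cells, at 110.2 CPM (30.3%), in macrophages or monocytes, at 70.9 CPM young and 75.01 CPM old, and in NK cells or ILC1s of both libraries, and in the old library also in T cells, at 15.2 CPM, and neutrophils. *Gsta4* exceeded the range only in old T cells, at 1.47 CPM. The old cells with uroplakin genes described below held 2586 UMIs of *Gsta4* and 4553 of *Gstm1*, against 1791 and 17121 in old proximal tubule cells. The 4 reference genes stand for free tubule RNA only. The part of free RNA from other cells in the *Gsta4* and *Gstm1* values was not tested.

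*Gsta4* was higher in thick limb cells than in the proximal tubule. In thick limb cells, which reabsorb salt, it was at 100.6 (68.8 to 142) CPM over 26 young cells and 67.0 (51.9 to 85.0) CPM over 55 old cells, against 33.3 and 27.8 CPM in proximal tubule cells. *Cbr1* was at 91.2 and 116 CPM there, against 89.0 and 69.7 CPM. Xist cells of the proximal tubule had *Gsta4* at 134 CPM young and 90.9 CPM old, and *Cbr1* at 188 and 147 CPM. Its Y cells had *Gsta4* at 7.37 and 3.91 CPM and *Cbr1* at 39.4 and 31.5 CPM. Thick limb cells were not read by sex. Few cells met the gate for principal cells of the collecting duct. In them *Gsta4* was at 1913 (1199 to 2897) CPM in 1 young cell and 2659 (2369 to 2975) CPM over 6 old cells. Of these, 1 young and 5 old cells also had UMIs of at least 3 of 5 uroplakin genes, which mark the urothelium. The name principal cell is therefore uncertain for them, and their *Gsta4* level is not a value of the collecting duct.

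**Figure D4:**
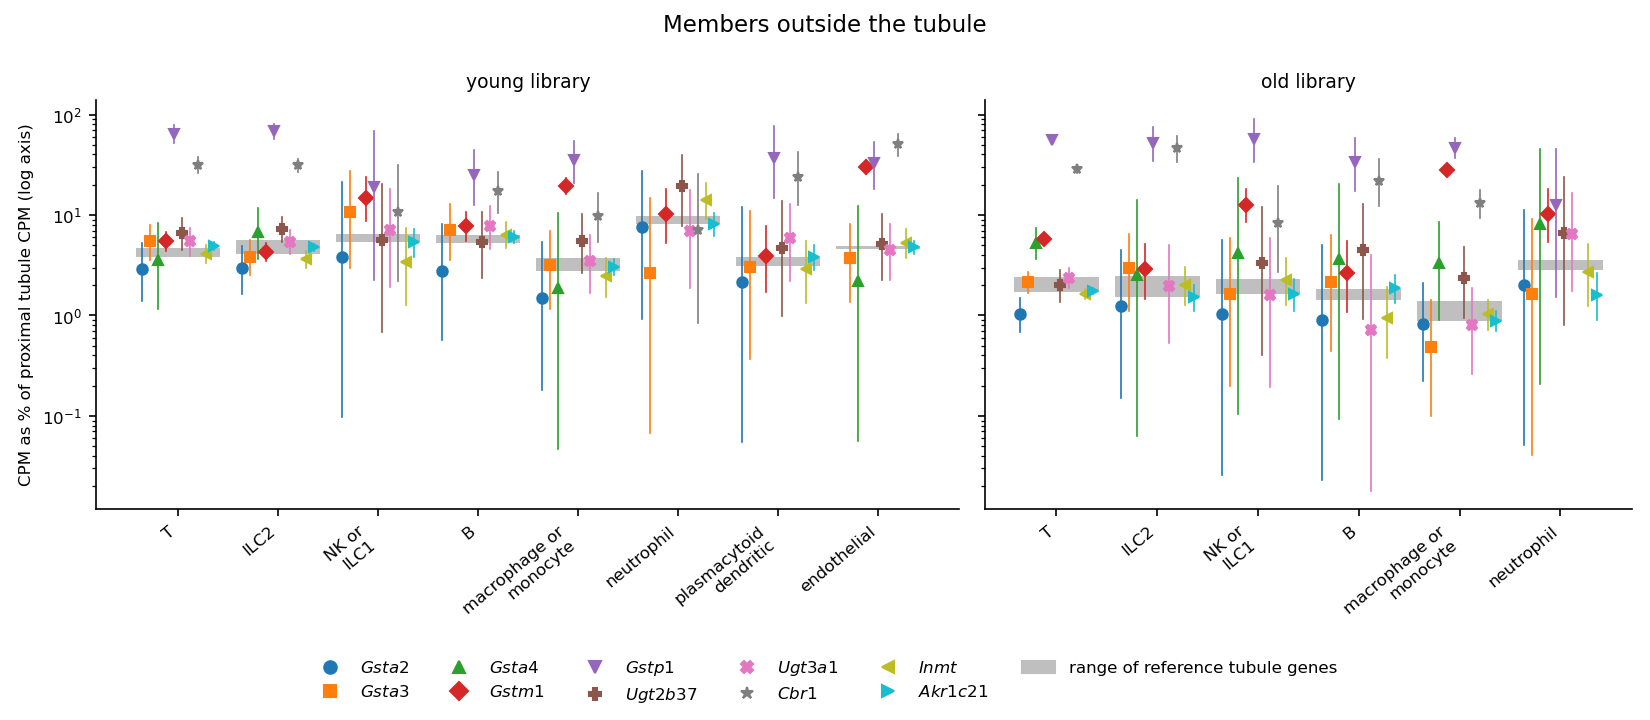
CPM of each member in a class as a percent of its CPM in proximal tubule cells (log axis), for classes of at least 50 cells in the young (left) and old (right) library, with 95% Poisson intervals as lines and the range of 4 reference tubule genes as grey bars; members with 0 UMIs in a class are not drawn. *Gstp1* and *Cbr1* stand above the bars in most classes and *Gstm1* in endothelial cells and macrophages or monocytes, while *Akr1c21* and *Inmt* lie near them but for *Akr1c21* in old neutrophils, which lies below.

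The rest of the detoxification system was read from a list of 92 genes. Of the 70 with enough UMIs in the young library, 18 were at least 2-fold higher in S3, beside 5.35% of all genes, and 17 lower, beside 14.3%. Over the list 19 genes kept a direction past 2-fold in both libraries. Close relatives of members took either side. *Ugt2b38*, at 1035 CPM in young and 849.9 CPM in old tubule cells, was higher in S3 (1.09 young and 1.86 old), as was the hydroxysteroid dehydrogenase *Akr1c14* (5.97 and 4.98). *Gsta1* (-1.77 and -4.01) and *Gstm2* (-2.91 and -4.47) were lower in S3, and *Ugt2b34*, another glucuronosyltransferase, was far lower in S3 (-7.64 and -6.36). *Ugt3a2* and *Gstm5* lay within 2-fold, at 0.72 and -0.24 in the young library. The glutathione supply genes *Gclm*, *Gss* and *Ggt1* were higher in S3 in both libraries, *Ggt1* by 1.89 and 1.69, and the secreted peroxidase *Gpx3* lower (-2.97 and -1.90).

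By sex, 15 of the 76 listed genes counted in the young library were at least 1.5-fold higher in Y cells, beside 5.53% of all genes, and 24 lower, beside 24.9%. Among 75 counted in the old library 20 were higher, beside 8.56%, and 22 lower, beside 35.9%, so on the lower side the list was not far from all genes in either library. Of the other glutathione transferases none of 14 was higher in young Y cells and 9 were lower, and in the old library 1 of 15 was higher and 7 lower, to be read against the same shares of all genes. *Gsta1* stood furthest on that side, at 42.8 CPM in Xist and 2.97 CPM in Y cells of the young library (log2 ratio -3.85) and -4.81 in the old. *Ugt2b38* (3.44 and 3.41), *Ugt8a* (4.34 and 3.80), *Akr1c14* (3.85 and 4.29) and *Cyp2e1*, an ethanol-oxidising cytochrome P450 (2.24 and 3.40), were higher in Y cells in both libraries. Between the libraries 12 of 79 listed genes were at least 1.5-fold higher in old tubule cells, beside 5.73% of all genes, and 6 lower, beside 6.66%. The lower ones were led by *Akr1c18* (-5.17), which marked the *Gstm1*-rich S3 cells, and *Cyp27b1*, the vitamin D 1-alpha-hydroxylase (-1.51), and the higher ones by *Cbr3* (2.84), *Gstp3* (2.41) and *Akr1c20* (2.03). *Mgst1*, a microsomal transferase, went from 39.3 to 113 CPM.

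The genes whose pattern was most like that of each member were found over 12 profiles, S1, S2 and S3 of Xist and Y cells of each library, among 3198 genes of at least 50 CPM. The profiles share their libraries, so these correlations are descriptions and carry no p-value. *Gsta3* had the closest neighbours, among them *Ces1d*, a carboxylesterase (Pearson r 0.99), and *Fmo1*, a flavin monooxygenase (0.98). The old Xist S3 profile rests on only 9 cells, with 0 UMIs of *Gsta3* and of *Ugt2b37*. In the other profiles *Gsta3* ran only from 43.5 to 282 CPM, so its r may lean on that empty profile, whose part was not tested. *Gsta2* was most like *Cdkl1* (0.95), *Prom1* (0.95) and *Gsta4* (0.95), and *Gsta4* was most like *Gsta2*, *Fam13a* (0.92) and *Dpp4* (0.91). *Ugt2b37* was most like *Psmd7* (0.93), the organic anion transporter *Slco1a1* (0.93) and *Slc17a3* (0.91), and *Inmt* most like the proteasome genes *Adrm1* and *Psma3* (0.96 each) and *Cndp2* (0.94). *Akr1c21* was most like *Fmo5* (0.93), *Ifrd2* (0.93) and *Sap30* (0.93), and *Ugt3a1* most like *Cdo1* (0.92), *Smagp* (0.92) and *Tspo* (0.90). For *Gstm1* the nearest, *Entpd5*, *Gm4450* and *Mccc2*, reached only 0.90, 0.90 and 0.89. *Cbr1* was most like *Tm9sf2* (0.95), *Dram2* (0.90) and *Slc23a1* (0.89), and *Gstp1* like *Psma4* (0.97), *Cenpx* (0.97) and *Cyb5a* (0.95).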

How the data were processed

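The authors made the deposited counts with Cell Ranger version 3 (as named in the submitters' processing notes) on the mm10 genome: whole-number UMI counts per gene and barcode, not normalized, of 15076 young and 12622 old barcodes (156787812 and 126334256 UMIs). The study's further work on them used the R packages Seurat and SingleCellSignalR, whose output is not used here. Cells were filtered as in the report, and classes were gated by marker genes without clustering. A cell in several gates (892 young, 803 old) or in none (1145, 743) was kept apart. UMIs were summed over a set of cells and scaled to CPM. Intervals were exact Poisson for CPM and exact binomial (Clopper-Pearson) for shares and log2 ratios. Ratios and shares past a fold were counted over genes with at least 100 UMIs in both groups together. Scrublet called 328 young and 246 old doublets, which were kept; those in proximal tubule cells were 36 and 3. Of the proximal tubule cells 378 young and 116 old had exactly 4 markers, and 296 and 86 cells with 3 markers stood just outside. Cells with a segment share between 0.5 and 0.7 numbered 2764 and 1788.

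The libraries' pools of mice are not identified in the labels, so cells are not replicates and the ages were compared as 2 libraries. The members and lists were chosen with earlier results of these data known. All 10 members were named, with relatives and listed genes of largest ratio, and the 3 genes most like each member by log2(CPM + 1). A planned reference tubule gene and a gene most like a member are not reported here, and the reference comparison was made with the other 4 genes. The carrier mark and the uroplakin mark were chosen after seeing the data. Alternatives varied the cell filters, doublets, the tubule gate, scaling, depth (thinning to 1000 UMIs), the segment call, sex and, added after seeing the data, the carriers. The ratio step was tested on simulated counts. Scanpy 1.11.5, Matplotlib 3.10.9, pandas 2.3.3, SciPy 1.17.1 and NumPy 2.4.6 were run in Python 3.11.15, with seed 7.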

Additional observations from a re-analysis of the deposited data

Results flagged for a closer look

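Effects that went in opposite directions in 2 groups of cells or in the 2 libraries are listed here as values. The differences themselves were not tested, since each age had 1 library. Between old and young, Xist and Y cells moved apart for 4 members: *Gsta2* (log2 ratio 0.22 in Xist and -0.98 in Y cells, a difference of 1.21), *Akr1c21* (0.69 and -0.20, a difference of 0.89), *Gstp1* (-0.46 and 0.16, a difference of -0.61) and *Gsta3* (-0.24 and 0.34, a difference of -0.58). Between S3 and S1, *Cbr1* was higher in S3 of the young library (1.17) and lower in S3 of the old (-0.70), a difference of 1.86. The 169 young and 6 old S3 cells that carried the *Akr1c18* mark move with it, and without them the young ratio was -1.44.

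In injury-marked against unmarked tubule cells, the young library (11 marked cells) and the old library (51) differed in sign for *Gstm1* (2.46 and -0.19, a difference of 2.65), *Cbr1* (0.69 and -1.61, a difference of 2.30), *Ugt2b37* (-1.33 and 0.79, a difference of -2.12), *Akr1c21* (0.20 and -1.25, a difference of 1.46) and *Ugt3a1* (0.50 and -0.38, a difference of 0.87). The young values rest on few cells, and in the old library 38 of the 51 marked cells were Y cells.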

How the results depend on the processing

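Counts of members past a fold stayed within 1.5 times of the reported count in 69 of the values recomputed under alternatives, and 5 did not. These were the old S3 over S1 count, which was 7 and became 4 with cells thinned to 1000 UMIs, where fewer genes kept 100 UMIs, and 4 in Y cells alone; the old over young count, which was 1 and became 2 in Xist cells and 4 in Y cells; and the old injury count, which was 7 and became 4 in Y cells. Of the single values past their fold, 9 turned in sign under an alternative. They were *Gsta4* in old S3 over S1 with a gate of 3 markers (0.080), *Akr1c21* in old S3 over S1 among Xist cells (-2.33, with 9 S3 cells), *Cbr1* in young S3 over S1 among Y cells (-0.10) and without carriers (-1.44), *Cbr1* in old over young S3 without carriers (0.095), *Ugt2b37* in old over young Xist cells (0.044), and, among injury-marked cells, *Ugt2b37* young after thinning (0.97), *Inmt* old among Xist cells (1.24) and *Gsta4* old among Y cells (0.64). Of the values under their fold, 32 did so, most of them in the injury contrast, and 10 of the 32 in Xist or Y cells alone, as for *Gsta2*, *Akr1c21*, *Gsta3* and *Gstp1* between old and young. *Cbr1* in old S3 over S1, at -0.70, became 0.74 with a segment share of 0.75 and 1.39 in Xist cells. The causes of these were not tested beyond what the settings themselves remove. The young injury contrast could not be made among Xist cells, which held no marked cell. No paired analysis was possible because each age has 1 library. Depth limits the old S3 group (198 cells) and every value of S3 Xist cells most.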

Other observations

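*Gsta4* and *Gstm1* were also very high in cells outside the classes compared above. Cells with at least 3 of the uroplakin genes *Upk1a*, *Upk1b*, *Upk2*, *Upk3a* and *Upk3b*, which coat the urothelium of the renal pelvis and urinary tract, numbered 35 in the young and 33 in the old library, a mark chosen after their values were seen. Most of them (26 and 23) met no gate, 6 young ones met the proximal tubule gate, and none was called a doublet. *Gsta4* was at 1798 (1687 to 1915) CPM in the young and 3005 (2890.0 to 3123) CPM in the old ones, with a UMI in 34 of 35 and 33 of 33. *Gstm1* was at 3725 and 5290.2 CPM. *Akr1c21* stood at 323 and 128 CPM in the same cells, below its proximal tubule level in both libraries.

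Some relatives of the members were more abundant in tubule cells than the members were. *Ugt2b38* was at 1035 CPM young and 849.9 CPM old, above *Ugt2b37*, and *Ugt3a2* was at 365 and 354 CPM, above *Ugt3a1*. *Gstm5* was at 362 and 349.6 CPM and lay within 1.5-fold between S3 and S1 and between Xist and Y cells of each library, whereas *Gstm1* passed 2-fold between young S3 and S1 and 1.5-fold between old Xist and Y cells. *Gsta1* was at 11.05 and 13.5 CPM and *Gstp2* at 0.300 and 0.420 CPM.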
